A study of Mus musculus with 2 samples.

Results

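Immediate early genes were followed in single cells of dystrophic muscle. The set comprised 10 of the 24984 genes listed in the data: the AP-1 genes Fos, Fosb, Jun, Junb, Jund and Atf3, the zinc finger factor gene Egr1, and Ier2, Zfp36 and Btg2. They were chosen by symbol and by no rule on their values, but with earlier results of these data known. All 10 were listed in both libraries. Mononuclear cells of hind limb muscle had been sorted as live by propidium iodide. All mice were mdx, a dystrophin-deficient model of Duchenne muscular dystrophy. Ctrl mice were Pax7CreERT2/R26YFP; Yy1+/+; mdx and dKO mice Pax7CreERT2/R26YFP; Yy1f/f; mdx, with the transcription factor gene Yy1 deleted in muscle stem cells (MuSCs). Per the study's methods both groups received tamoxifen at 1.5 months of age and muscle was taken 1 month later, while the sample labels give the treatments as no treatment and YY1 dKO. The Cre driver is Pax7, a gene of MuSCs, so the deletion was aimed at these cells and not at the other cell types. Each library pooled 3 mice, so each group had 1 library and no replicates: no test was possible, and the 95% intervals below cover counting error only.

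FOS, FOSB and ATF3 pair with JUN proteins through leucine zippers to form AP-1 dimers, which bind DNA and set transcription in response to growth factors, cytokines and stress. Most genes of the set are transcribed within minutes of a stimulus, without new protein synthesis, through factors such as SRF, ELK1 and CREB that are already present in the cell. Egr1 encodes a zinc finger factor of the same early wave, Zfp36 encodes tristetraprolin, which directs AU-rich mRNAs to decay, and Btg2 encodes an antiproliferative partner of the CCR4-NOT deadenylase. Enzymatic digestion of tissue is itself known to induce these genes. The study's methods for isolating muscle cells use collagenase, and the part of this step in the levels below was not tested.

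The 2 libraries held 4527 Ctrl and 3483 dKO cells, with 45556596 and 33815155 UMIs (molecular tags that count RNA molecules) and medians of 7697 and 7615 UMIs per cell. After filters 4010 and 3079 cells were kept, and 7 cell barcodes occurred in both libraries. Clustering was done without the 10 genes and without their pathway genes, so these genes did not define the cell classes. It gave 12 classes named "like" from marker genes, of which 10 had at least 30 cells in each library. They included monocyte/macrophage (MO/MP)-like cells (1531 in Ctrl, 1166 in dKO), fibro/adipogenic progenitor (FAP)-like cells (1131 and 1173), endothelial cell (EC)-like cells (469 and 181) and MuSC-like cells (116 and 30). Yy1 had 354 UMIs in Ctrl MuSC-like cells (160.1 CPM) and 7 in those of dKO (11.6 CPM), a log2 ratio of -3.79 (-5.11 to -2.73). The same ratio was 0.12 in FAP-like, 0.11 in MO/MP-like and -0.03 in EC-like cells. It was -0.53 (-0.92 to -0.14) in T cell-like and 0.38 (0.05 to 0.71) in dendritic cell-like cells.

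RefSeq promoters (GRCm38.p6) were matched for 8 of the 10 genes, and the 250 bases before each start were searched on both strands for 5 motifs of early gene control: the CArG box bound by SRF, the cyclic AMP element (CRE) TGACGTCA, the AP-1 site TGANTCA, the ETS core CCGGAA and the TATA box TATAAA. No letters of these motifs overlapped in the matches found. Ier2 and Egr1 were not among the promoters matched. The 4 windows printed here belong to genes that, like all 10, were higher in dKO than in Ctrl MO/MP-like cells (below). That direction thus does not set the 4 apart. Matches are in capitals: Fos (chr12:85473640-85473889, plus strand), Atf3 (chr1:191183334-191183583, minus strand), Zfp36 (chr7:28379229-28379478, minus strand) and Btg2 (chr1:134079156-134079405, minus strand), each written 5′ to 3′ on the strand of its gene.
Fos: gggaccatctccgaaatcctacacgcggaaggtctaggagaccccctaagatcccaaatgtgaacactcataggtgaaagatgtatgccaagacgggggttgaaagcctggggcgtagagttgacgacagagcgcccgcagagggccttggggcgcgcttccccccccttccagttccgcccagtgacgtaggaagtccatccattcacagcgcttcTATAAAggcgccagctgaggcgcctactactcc
Atf3: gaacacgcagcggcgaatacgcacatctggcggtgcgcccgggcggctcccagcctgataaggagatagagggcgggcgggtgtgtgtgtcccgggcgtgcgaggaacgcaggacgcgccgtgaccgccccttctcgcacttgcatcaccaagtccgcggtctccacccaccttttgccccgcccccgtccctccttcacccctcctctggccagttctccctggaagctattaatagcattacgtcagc
Zfp36: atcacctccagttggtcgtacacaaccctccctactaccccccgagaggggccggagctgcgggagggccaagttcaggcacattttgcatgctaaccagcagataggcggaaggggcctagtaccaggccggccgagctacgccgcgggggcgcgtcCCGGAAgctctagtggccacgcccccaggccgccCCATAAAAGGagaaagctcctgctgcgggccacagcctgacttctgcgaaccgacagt
Btg2: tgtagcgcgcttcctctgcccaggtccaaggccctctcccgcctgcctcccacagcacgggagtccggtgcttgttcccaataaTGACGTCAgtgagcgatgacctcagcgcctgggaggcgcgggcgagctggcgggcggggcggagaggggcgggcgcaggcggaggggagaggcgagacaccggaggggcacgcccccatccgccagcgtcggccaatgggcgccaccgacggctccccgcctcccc

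The Fos window held the TATA box 33 to 28 bases before the start. The Zfp36 window held a CArG box 58 to 49 bases before the start and an ETS core at 92 to 87. In the Btg2 window the CRE lay 166 to 159 bases before the start, and Atf3 had none of the 5 motifs in these letters. Of the 8 windows, 3 held a match, and each of the CArG box, CRE, ETS core and TATA box was found in 1 of 8. Across 32851 promoter windows of the same length, the CArG box was found in 1.47%, the CRE in 1.55%, the ETS core in 12.0% and the TATA box in 12.4%. The AP-1 site was found in 0 of the 8 and in 6.75% of all windows. With the motifs written this way, none was found in more than 1 of the 8 windows. Variant sites, and sites farther from the start, were not searched. The Jun window holds tgacatca, the Atf3 window ttacgtca and the Fos window tgacgtag, which are close to the CRE but were not counted. These counts thus do not show that the 8 promoters lack control through such sites.

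The level of each gene was first set side by side across cell classes, as pooled CPM (the UMIs of a gene over all UMIs of the class in a library, on the CPM scale). These orders are a description, with no test. On this pooled scale the highest class for each gene was a stromal, tendon or vessel class. The lowest was an immune class or the MuSC-like cells.

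Among the FOS genes, Fos was highest in tenocyte-like cells, at 3182 CPM in Ctrl and 2767 in dKO. It stood at 1769 and 1551 in FAP-like cells, at 572 and 708 in MO/MP-like cells, and was lowest in B cell-like cells, at 218 and 209. The highest class thus exceeded the lowest 14.6-fold in Ctrl and 13.3-fold in dKO, and both libraries placed the same classes at the ends. Fosb had a 10.4-fold range in Ctrl and a 26.4-fold range in dKO. Its highest class was tenocyte-like in Ctrl (493 CPM) and smooth muscle/pericyte-like in dKO (699.9), and its lowest B cell-like in Ctrl (47.5) and MuSC-like in dKO (26.5).

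The JUN genes varied less between classes than Fos. Jun spanned 4.62-fold in Ctrl and 4.91-fold in dKO, with 3041 and 2537 CPM in FAP-like cells, 3129 and 3028 in EC-like cells and 886 and 954 in MO/MP-like cells. Junb spanned 3.65-fold and 4.58-fold, and Jund, whose transcript is known to be more steadily present than those of its relatives, 3.63-fold and 3.30-fold. By pooled CPM, MuSC-like cells were the lowest of the 10 classes for both Junb (583 and 499 CPM) and Jund (541 and 569) in both libraries. This rank leaned on deep cells, as the 40 deepest of the 116 Ctrl MuSC-like cells held 74.5% of the UMIs of the class. Junb and Jund stood at 271 and 317 CPM in those cells, against 1624 and 1658 in the 38 shallowest. At the upper end some neighbours lay within their counting intervals, such as Jund in dKO at 1879 CPM in EC-like and 1877 in smooth muscle/pericyte-like cells. In T cell-like cells Junb reached 1588 and 1173 CPM, above the 857 and 1021 of MO/MP-like cells, whereas Fos lay below them at 317 and 285. Atf3, a stress-induced bZIP factor, was highest in EC-like cells, at 956 and 1132 CPM, against 641 and 676 in FAP-like and 408 and 659 in MO/MP-like cells.

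Egr1 separated the classes most of the 10 genes. Its range was 46.7-fold in Ctrl and 49.1-fold in dKO. Tenocyte-like cells (3408 and 2909 CPM), FAP-like cells (2724 and 2566), smooth muscle/pericyte-like cells (1477 and 1246), EC-like cells (1181 and 1133) and MuSC-like cells (1088 and 664) took the first 5 places in the same order in both libraries. The immune classes took the other 5 places, with 89.8 and 179 in MO/MP-like cells, 73.0 and 82.3 in T cell-like cells and 137 and 59.3 in dendritic cell-like cells. The last places of this order differed between libraries, T cell-like in Ctrl and dendritic cell-like in dKO. By pooled CPM, MuSC-like cells thus came in the fifth place for Egr1, while their Junb and Jund were the lowest.

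Thinned to 2000 UMIs per cell, Egr1 was detected in 71.8% of the 1068 FAP-like cells of Ctrl and in 69.6% of the 1118 of dKO, with 63 and 55 shallower cells left out. The shares were 13.4% and 15.6% in MO/MP-like cells (150 and 116 left out) and 12.1% and 15.2% in T cell-like cells (24 and 25 left out). Unthinned they were 88.5% and 86.0% in FAP-like cells, at median depths of 12071 and 12052 UMIs, 30.1% and 30.02% in MO/MP-like cells, at 8141 and 6996, and 19.1% and 20.4% in T cell-like cells, at 3219 and 3089. No class is known to lack Egr1 altogether, so the share that free RNA gives was not measured, and the MO/MP-like share cannot be set above that of T cell-like cells.

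Ier2, a small nuclear regulator, was lowest in MO/MP-like cells in both libraries, at 97.8 and 132 CPM, and stood at 467 and 428 in FAP-like cells. Zfp36 was highest in tenocyte-like cells, at 1037 and 798 CPM, and FAP-like cells came next at 803 and 744. T cell-like cells had 100.7 and 223 CPM of Zfp36 and MuSC-like cells 172 and 101.2. Btg2 was also highest in tenocyte-like cells, at 1283 and 1293 CPM, and stood at 279 and 413 in MO/MP-like cells. Immune classes were not always low for these genes: B cell-like cells came in the third place for Ier2 in dKO, as dendritic cell-like cells did for Btg2. Over the 20 class-by-library levels, each gene's Spearman rho with the mean of the other 9 ran from 0.63 (Ier2) to 0.85 (Zfp36), where points share a library or a cell class.

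**Figure D1:**
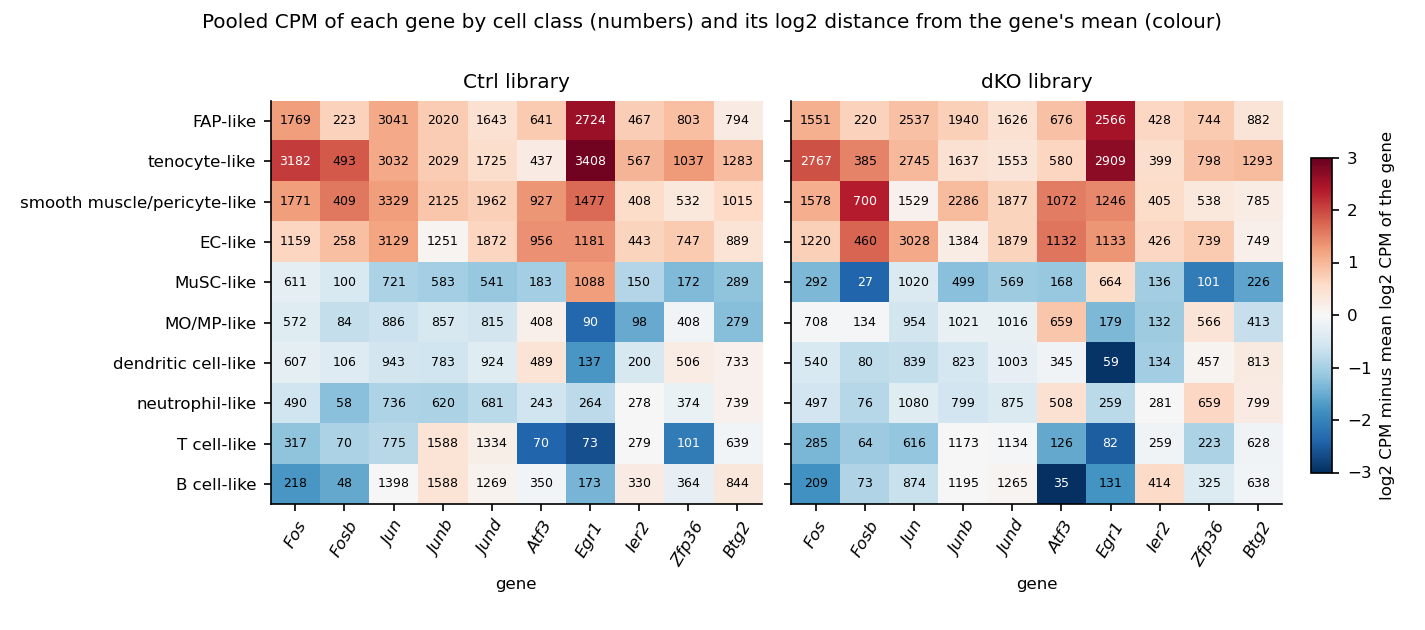
Each cell of the grid gives the pooled CPM of a gene (columns) in a cell class (rows), for the Ctrl library on the left and the dKO library on the right. Colour shows the log2 distance of that level from the gene's own mean over all classes and libraries, so colours compare classes within a column: Egr1 runs from 3408 CPM in Ctrl tenocyte-like cells to 59.3 in dKO dendritic cell-like cells.

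Within a class the genes were spread unevenly between cells. Cells were thinned to 2000 UMIs and the UMIs of the 10 genes summed in each. FAP-like cells had a median of 18 such UMIs in Ctrl (quartiles 8 and 41, highest 210) and 16.5 in dKO (quartiles 7 and 42, highest 199). The 10% of FAP-like cells with most of them held 34.2% and 35.4% of them, and 46.9% and 45.1% of the cells had 20 or more. MO/MP-like cells had a median of 7 in Ctrl (quartiles 3 and 14) and 8 in dKO (4 and 17), with 16.4% and 22% of cells at 20 or more. The 2 FAP-like curves thus nearly coincided, while the MO/MP-like curve of dKO lay above that of Ctrl at the upper percentiles. In MuSC-like cells the top 10% held 56.2% of the UMIs of the genes in Ctrl (111 cells) and 49.7% in dKO (30 cells), around medians of 6 and 5.

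**Figure D2:**
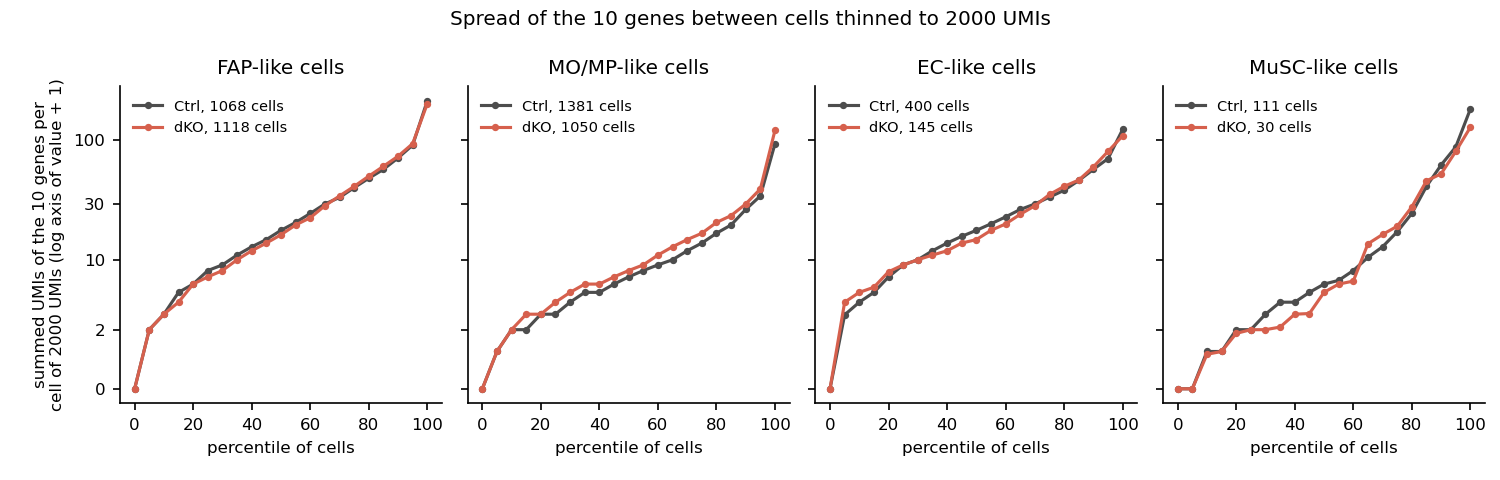
The summed UMIs of the 10 genes per cell of 2000 UMIs (vertical, log axis of the value plus 1) are drawn against the percentile of cells (horizontal) in 4 classes, with Ctrl in grey and dKO in red. FAP-like medians are 18 and 16.5, MO/MP-like medians 7 and 8, and the MuSC-like curve of dKO rests on 30 cells.

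The genes varied together from cell to cell. Over thinned FAP-like cells, all 45 pairs of genes had a Spearman rho above 0 in both libraries, with a median of 0.40 in Ctrl and 0.42 in dKO. Fos and Egr1 formed the closest pair in both (0.64 and 0.65). The loosest pairs held Fosb, at 0.10 with Jun in Ctrl and 0.08 with Ier2 in dKO, and Fosb and Jund had the lowest median rho with the others (0.21 and 0.26 in Ctrl). Medians over the 45 pairs were 0.31 and 0.28 in EC-like, 0.33 and 0.37 in tenocyte-like, 0.15 and 0.17 in MO/MP-like and 0.08 and 0.14 in T cell-like cells. These are correlations over cells of 1 library with sparse counts at equal depth, given as a description.

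The next comparison asked how the genes differed between dKO and Ctrl within each class. A gene was called higher or lower where its pooled CPM ratio was 1.5-fold or more and the counting interval left out 1, among genes with at least 100 UMIs in the class. The 10 genes all met this minimum in the 4 main classes. Of these 4 classes, by pooled CPM, MO/MP-like cells gave the most even picture, with all 10 genes above Ctrl. FAP-like and EC-like cells stayed near Ctrl. MuSC-like cells lay below it for most of the genes, to a degree that depended on the weighting of cells.

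In MO/MP-like cells 3 of the 10 genes were called higher and 0 lower, where 4.18% of 9144 genes tested were called higher and 3.73% lower. Ratios above 1 were found for 10 of the 10, against 47.8% of all genes tested. The median log2 ratio of the 10 was 0.45, against -0.01 for all genes. Egr1 was called, with 89.8 CPM in Ctrl (1346 UMIs) and 179 in dKO (1671 UMIs), a log2 ratio of 1.00 (0.89 to 1.10). Atf3 was also called, at 408 CPM in Ctrl and 659 in dKO, a log2 ratio of 0.69 (0.64 to 0.74). The third was Fosb, at 83.9 CPM in Ctrl and 134 in dKO, a log2 ratio of 0.67 (0.56 to 0.78). With cells thinned to 2000 UMIs, 1 of the 3 stayed past the limit, Atf3 at 0.64, while Egr1 was at 0.58 and Fosb at 0.46.

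The other 7 genes were not called in MO/MP-like cells, although each counting interval lay above 0. Btg2 came closest, with 279 CPM in Ctrl and 413 in dKO and a log2 ratio of 0.57 (0.50 to 0.63). Zfp36 stood at 408 and 566 CPM (0.47, 0.42 to 0.53), and Ier2 at 97.8 and 132 (0.43, 0.32 to 0.54). Jund had 815 and 1016 CPM (0.32, 0.28 to 0.36), Fos 572 and 708 (0.31, 0.26 to 0.35), and Junb 857 and 1021 (0.25, 0.21 to 0.29). Jun had the smallest ratio of the set, at 886 and 954 CPM (0.11, 0.07 to 0.15). Averaging the CPM of each cell, which weights all cells alike, again gave ratios above 1 for 10 of 10 genes, against 45.5% of all genes, with a median log2 ratio of 0.39.

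**Figure D3:**
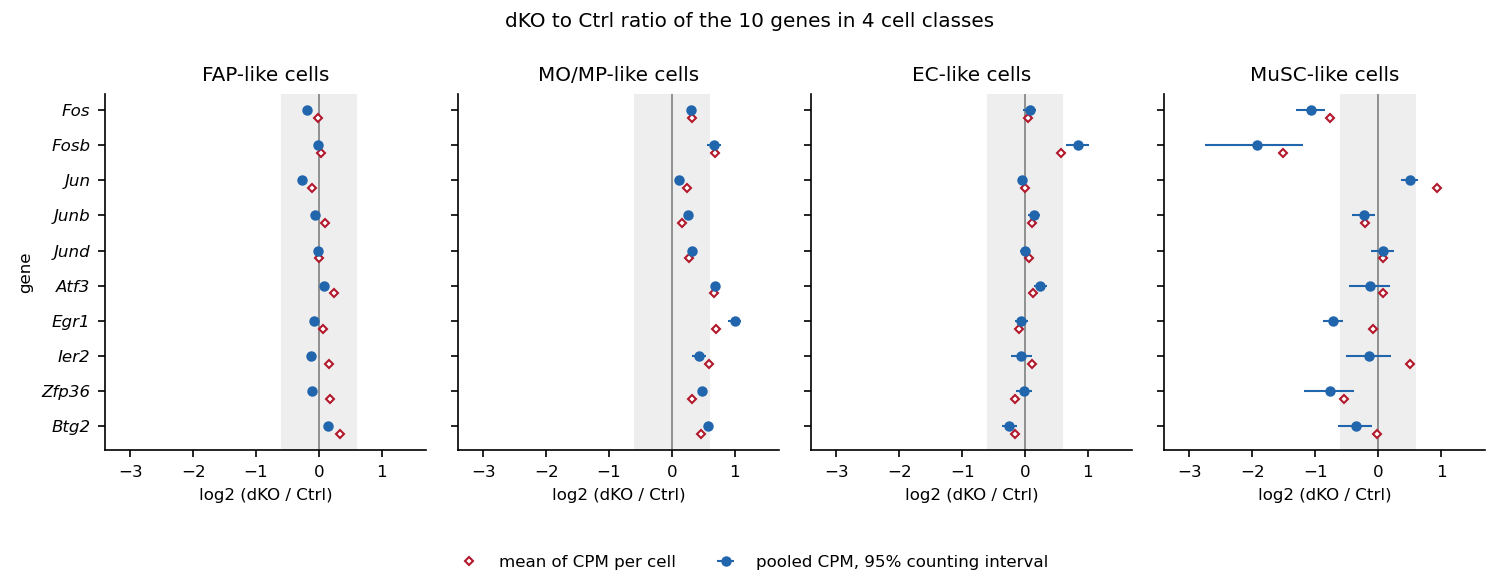
Log2 ratios of dKO to Ctrl (horizontal) are drawn for each gene (vertical) in 4 classes, with blue points and bars for pooled CPM and its 95% counting interval, red diamonds for the mean of per-cell CPM, and a grey band for ratios under 1.5-fold. In MO/MP-like cells all 10 blue points lie to the right of 0, from 0.11 (Jun) to 1.00 (Egr1), while in MuSC-like cells they run from -1.92 (Fosb) to 0.50 (Jun).

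The largest of these ratios, that of Egr1, leaned on 1 cell. A dKO cell of this class with 21613 UMIs carried 229 of the 1671 Egr1 UMIs (13.7%), and the next cell carried 87. It had 1 UMI over the 12 MO/MP markers but 61 UMIs over the MuSC markers, of which 9 of 10 were seen, so its own markers went against its class. Without the cell with most Egr1 UMIs in each library the log2 ratio was 0.82 (0.71 to 0.93). A setting chosen after seeing this left out all cells that showed a larger share of another marker list than of the MO/MP list, 67 in Ctrl and 37 in dKO. The Egr1 log2 ratio was then 0.72, 3 genes were called and the median of the 10 was 0.42. Over all alternatives the Egr1 ratio ran from 0.58, with cells thinned to 2000 UMIs, to 1.01.

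Other values moved with the MO/MP-like result. The summed MuSC markers of the class stood at 259 CPM in Ctrl and 435 in dKO, with 8 of 10 higher in dKO, the FAP markers at 530.2 and 714 (3 of 12 higher), and the neutrophil markers at 2410 and 354 (2 of 9 higher), with no marker of these lists at 0 in both. Cell cycle genes summed to 682.9 and 463 CPM (0 of 10 higher) and EC markers to 349.95 and 249.7 (1 of 10 higher). MO/MP markers summed to 17327 and 17887 CPM. Malat1, a nuclear RNA read here as a sign of RNA quality, stood at 17929 and 23878 CPM, and Neat1 at 829 and 761. The part of these differences in the ratios of the 10 genes was not tested.

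The MO/MP-like difference was then read by depth and by sub-cluster. Cells were split into 3 equal bins by UMI count over both libraries, which had median log2 ratios over the 10 genes of 0.30 (481 Ctrl and 418 dKO cells), 0.18 (467 and 432) and 0.56 (583 and 316) from shallowest to deepest. Ratios above 1 were found for 9, 8 and 9 of the 10, against 48.6%, 47.5% and 49.2% of all genes. Malat1 was higher in dKO in each bin, at 27487 and 38206 CPM in the shallowest, 20619 and 24528 in the middle and 15642 and 19918 in the deepest. Egr1 stood at 56.6 CPM in Ctrl and 168 in dKO in the deepest bin, a log2 ratio of 1.57 (1.42 to 1.73), and this was 0.98 without the cells with more markers of another class. Junb and Jun, by contrast, had ratios on both sides of 0, with Junb at 0.01, -0.29 and 0.51 and Jun at 0.20, -0.13 and -0.03.

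Sub-clusters of the MO/MP-like cells, made without the 10 genes, all had a median log2 ratio above 0. It was 0.43 in cells led by Vcan and Slpi, which are monocyte genes (288 Ctrl and 262 dKO cells), 0.16 in cells led by Ccrl2 (268 and 222), and 0.38 in cells led by Lyve1 and Fcna, genes of resident macrophages (252 and 214). Cells led by Spp1 gave 0.36 (274 and 158), and cells led by the interferon-induced Ifit3b gave 0.35 (237 and 165). The largest median, 0.79, belonged to cells led by Dcstamp and Ear2 (110 and 97), in which Fos stood at 214 CPM in Ctrl and 438 in dKO, a log2 ratio of 1.03. A cluster led by S100a9 with cell cycle genes (102 and 48 cells) had a median of 0.52. It also held the widest Egr1 difference, 52.8 against 479 CPM, a log2 ratio of 3.18. Without the cells with more markers of another class, which left 59 and 26 cells of this cluster, its median was 0.15 and its Egr1 ratio 0.36. Fos there moved from 0.40 to -0.74, Jun from -0.26 to -0.83 and Ier2 from -0.34 to -1.97. Medians over all genes in these sub-clusters ran from -0.07 (Ifit3b) to 0.05 (Vcan). Atf3 was above Ctrl in each of the 7, by 0.21 to 1.01 on the log2 scale.

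**Figure D4:**
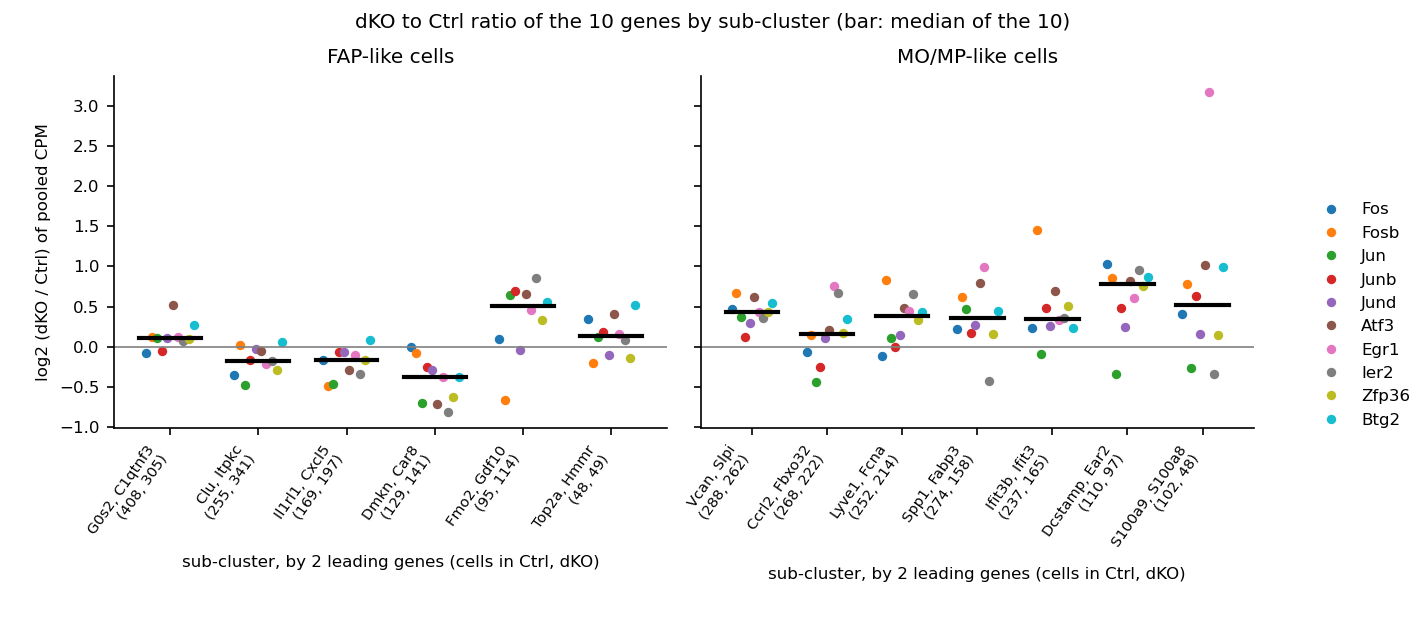
Log2 ratios of dKO to Ctrl (vertical) are drawn for the 10 genes (coloured points) in sub-clusters of FAP-like (left) and MO/MP-like cells (right), named on the horizontal axis by 2 leading genes with their cells in Ctrl and dKO. Black bars are medians of the 10, from -0.38 to 0.51 in the 6 FAP-like and from 0.16 to 0.79 in the 7 MO/MP-like sub-clusters drawn; the FAP-like sub-clusters of 17 and 10 and of 10 and 16 cells are not drawn.

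FAP-like cells held more UMIs of the genes than any other class, and their levels lay close together in both libraries. Of the 10 genes 0 were called higher and 0 lower, where 2.79% of 10428 genes tested were called higher and 2.79% lower. Jun had the widest difference, at 3041 CPM in Ctrl and 2537 in dKO, a log2 ratio of -0.26 (-0.28 to -0.24). Fos stood at 1769 and 1551 CPM (-0.19, -0.21 to -0.17) and Egr1 at 2724 and 2566 (-0.09, -0.11 to -0.07). Btg2, at 794 and 882 CPM (0.15, 0.12 to 0.19), and Atf3, at 641 and 676 (0.08, 0.04 to 0.12), lay above Ctrl. Ratios above 1 were thus found for 2 of 10 genes, against 40.6% of all genes, and the median of the 10 was -0.07, against -0.05 for all genes.

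That direction depended on how cells were weighted. With the mean of per-cell CPM, ratios above 1 were found for 8 of 10 genes, against 39.5% of all genes, and the median was 0.08, against -0.06 for all genes. Egr1 then stood at 3066 in Ctrl and 3205 in dKO (SDs over cells 4074 and 4726), and Zfp36 at 791 and 890.1 (1442 and 1733). The difference between the scales followed cell depth. In the shallowest of 3 depth bins of FAP-like cells the 10 genes summed to 14322 CPM in Ctrl and 16909 in dKO, in the middle bin to 16096 and 15309, and in the deepest bin to 13244 and 11199. Ratios above 1 were found for 10, 5 and 0 of the 10 genes in these bins, against 42.4%, 36.4% and 46.2% of all genes, with medians of 0.31, 0.00 and -0.21. Medians over all genes were -0.05, -0.08 and -0.02. The deepest bin held 61.4% of the UMIs of the class in Ctrl and 56.7% in dKO, and so carried the pooled CPM.

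Zfp36 showed this turn most widely. It stood at 726 CPM in Ctrl and 1102 in dKO in the shallowest bin, a log2 ratio of 0.60, and at 792 and 595 in the deepest, a log2 ratio of -0.41. Jun moved from 0.20 to -0.40 and Ier2 from 0.42 to -0.34, whereas Jund stayed between 0.01 and -0.07. Malat1 in FAP-like cells stood at 37004 and 36591 CPM in the shallowest bin and at 17532 and 21004 in the deepest, and its part in the turn was not tested.

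**Figure D5:**
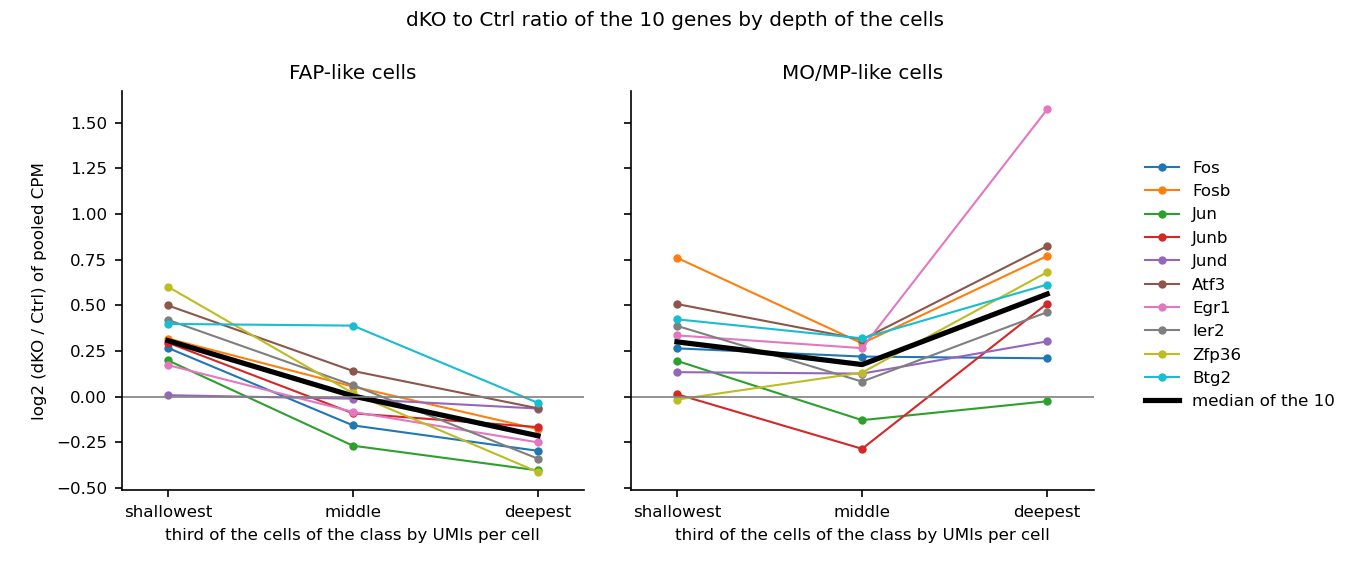
Log2 ratios of dKO to Ctrl in pooled CPM (vertical) are drawn for each gene (coloured lines) in the shallowest, middle and deepest bin of cells by UMIs per cell (horizontal), for FAP-like cells on the left and MO/MP-like cells on the right. The black line is the median of the 10 genes, which falls from 0.31 to -0.21 in FAP-like cells and stays above 0 in MO/MP-like cells, at 0.30, 0.18 and 0.56.

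Sub-clusters of FAP-like cells differed in the level of the genes more than the libraries did. Cells led by Clu and Itpkc (255 Ctrl and 341 dKO cells), which were clustered without the 10 genes, summed to 25201 CPM of them in Ctrl and 21547 in dKO, with a median log2 ratio of -0.18. Fos in these cells stood at 3441 and 2691 CPM, against 876 and 783 in cells led by Il1rl1 and Cxcl5 (169 and 197 cells). With the 10 genes allowed among leading genes, Zfp36 was 1 of those of the Clu cluster. Clustering without the 10 genes thus does not make this cluster independent of them. Cycling cells led by Top2a (48 and 49) had the lowest sums, 5259.7 and 5789.6 CPM. The median log2 ratio was 0.10 in cells led by G0s2 and C1qtnf3 (408 and 305), -0.17 in those led by Il1rl1, -0.38 in those led by Dmkn and Car8 (129 and 141) and 0.14 in the cycling cells. In the Dmkn cluster, which also had Dpp4 among its leading genes, Atf3 stood at 839.8 CPM in Ctrl and 510.3 in dKO, and Jun at 1364 and 834. Cells led by Fmo2 and Gdf10 (95 and 114) went the other way, with a median of 0.51, Jun at 2628 and 4120 CPM and Egr1 at 3471 and 4777. These cells were shallow, with medians of 2022 and 2370.5 UMIs, and their Malat1 stood at 60905 and 49861 CPM. Sub-clusters of under 20 cells in a library (17 and 10, and 10 and 16 cells) had medians of -1.31 and 0.46.

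In EC-like cells 1 gene was called, while the counting interval lay above 0 for 3 of the 10 and below 0 for 1. Fosb stood at 258 CPM in Ctrl (694 UMIs) and 460.2 in dKO (414 UMIs), a log2 ratio of 0.84 (0.66 to 1.01), and was the 1 gene of 10 called higher, where 4.45% of 4786 genes tested were called higher and 5.87% lower. No gene of the set was called lower, and 5 of 10 ratios lay above 1, against 46.2% of all genes. The other ratios ran from -0.25 (Btg2, 889 and 749 CPM) to 0.24 (Atf3, 956 and 1132). Jun, at 3129 and 3028 CPM (-0.05, -0.11 to 0.02), and Jund, at 1872 and 1879 (0.01, -0.07 to 0.09), had intervals on both sides of 0. In dKO 1 cell held 75 of the 414 Fosb UMIs (18.1%), and without the top cell of each library the Fosb ratio was 0.65 (0.46 to 0.84). By mean of per-cell CPM it was 0.57, under the 1.5-fold limit. The difference was wider in deeper cells. Fosb stood at 319.7 CPM in Ctrl and 324 in dKO in the shallowest depth bin (142 and 75 cells, log2 ratio 0.02), at 310.2 and 401 in the middle bin (170 and 46, 0.37) and at 223 and 519 in the deepest (157 and 60, 1.22).

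The Fosb ratio lay above 0 in each of the 3 clusters of EC-like cells. It was 0.42 in cells led by Car4 and Timp4, genes of capillaries (295 Ctrl and 97 dKO cells), 0.51 in cells led by Ackr1, with the venous adhesion gene Selp among its leading genes (112 and 52), and 0.62 in cells led by Gkn3, a gene of arterial endothelium (62 and 32). The Gkn3 cluster had the highest Fosb level of the 3, 953 CPM in Ctrl and 1467 in dKO, against 205 and 274 in the Car4 cluster. This cluster made up more of the dKO EC-like cells (32 of 181) than of the Ctrl ones (62 of 469). FAP markers in EC-like cells summed to 1664 CPM in Ctrl and 2124 in dKO (3 of 12 higher), MuSC markers to 446 and 817 (2 of 10 higher, Cdh15 and Musk at 0 in both), and smooth muscle/pericyte markers to 1003 and 635 (0 of 10 higher). Their part in the Fosb ratio was not tested.

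MuSC-like cells, in which Yy1 was lost, had 4 of the 10 genes called lower and 0 called higher, where 11.6% of 3847 genes tested were called lower and 7.1% higher. Fos stood at 611 CPM in Ctrl (1351 UMIs) and 292 in dKO (176 UMIs), a log2 ratio of -1.07 (-1.30 to -0.84). Fosb had 222 UMIs in Ctrl (100.4 CPM) and 16 in dKO (26.5 CPM), a ratio of -1.92 (-2.75 to -1.19). Egr1 stood at 1088 and 664 CPM (-0.71, -0.87 to -0.56) and Zfp36 at 172 and 101.2 (-0.77, -1.18 to -0.38). Jun lay on the other side, at 721 CPM in Ctrl and 1020.3 in dKO (0.50, 0.37 to 0.64), and was not called. Ratios above 1 were found for 2 of 10, Jun and Jund, against 50.1% of all genes, and the median of the 10 was -0.29, against 0.00 for all genes.

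The class was 1 cluster, led by Gal, Ttn and Myog and rich in cell cycle genes, and is not read here as stem cells alone. The dKO values rest on 30 MuSC-like cells, and 1 cell held 62 of the 176 Fos UMIs (35.2%) and 1 held 21 of the 61 Zfp36 UMIs (34.4%). Without the top cell of each library the Fos ratio was -1.53 (-1.82 to -1.25) and that of Jun 0.29 (0.14 to 0.44). Levels were also lower in deeper cells of the class: the 10 genes summed to 19901 CPM in the shallowest bin of Ctrl cells and 1718 in the deepest, and to 19342 and 1112.5 in dKO. By mean of per-cell CPM, Egr1 stood at 2757 in Ctrl and 2618 in dKO (SDs over cells 4859 and 5355), a log2 ratio of -0.07. Fos had a ratio of -0.76 on that scale, and Jun one of 0.94, past the 1.5-fold limit. Ratios above 1 were found for 4 of 10 genes on it, against 52.0% of all genes, and for 4 of 10 with thinned cells. Thinned cells averaged 19.17 UMIs of the 10 genes in Ctrl and 19.2 in dKO. FAP markers in this class summed to 979 CPM in Ctrl and 2069 in dKO, with 12 of 12 higher, tenocyte markers to 130.3 and 317 (4 of 8 higher, Kera at 0 in both), and MO/MP markers to 139 and 33.2 (0 of 12 higher). Neat1 stood at 792 and 333 CPM. The part of these in the ratios was not tested.

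Smaller classes are given as values, without calls. In neutrophil-like cells 9 of the 10 ratios lay above 1, against 61.4% of genes tested, with a median log2 ratio of 0.36, against 0.12. In tenocyte-like cells 2 of the 10 lay above 1, against 49.8%, with a median of -0.21, against -0.001. The other small classes had 2 to 4 of 10 ratios above 1, against 51.6% to 59.5%, with medians from -0.28 to -0.04. These counts are of pooled CPM. By mean of per-cell CPM they were 7 in T cell-like, 5 in dendritic cell-like, 5 in smooth muscle/pericyte-like and 3 in B cell-like cells. With thinned cells they were 5, 8, 5 and 4. In T cell-like and dendritic cell-like cells the direction thus depended on the weighting of cells. Neutrophil-like cells had 10 and 7 on these 2 scales, and tenocyte-like cells 1 and 2. In T cell-like cells (115 Ctrl and 137 dKO) Zfp36 had 40 and 111 UMIs, 100.7 and 223 CPM (log2 ratio 1.15, 0.61 to 1.71), while Junb stood at 1588 and 1173 CPM (-0.44, -0.60 to -0.27). Cell cycle genes in this class summed to 272 CPM in Ctrl and 608 in dKO (10 of 10 higher). NK cell markers summed to 2477 and 2435 CPM and T cell markers to 2205 and 2297, so the class is not read as T cells alone. The part of these in the T cell-like ratios was not tested. Tenocyte-like cells (139 and 89), the class with the highest Fos and Egr1, had log2 ratios of -0.20 for Fos (-0.27 to -0.13), -0.23 for Egr1 (-0.30 to -0.16) and -0.51 for Ier2 (-0.69 to -0.33), while Atf3 stood higher in dKO, at 437 and 579.9 CPM (0.41, 0.24 to 0.58). Smooth muscle/pericyte-like cells (122 and 39) had Jun at 3329 and 1529 CPM (-1.12, -1.28 to -0.97) and Fosb at 409 and 699.9 (0.78, 0.51 to 1.04). EC markers in this class summed to 7578 CPM in Ctrl and 4127 in dKO, with 0 of 10 higher, and their part in these ratios was not tested. Neutrophil-like cells (97 and 36) had Atf3 at 243 and 508 CPM (1.06, 0.51 to 1.59) and Zfp36 at 374 and 659 (0.82, 0.35 to 1.27). Their own neutrophil markers summed to 212901 and 117028 CPM (3 of 9 higher), and the part of this in the ratios was not tested. In B cell-like cells (141 and 87) Atf3 had 125 UMIs in Ctrl and 9 in dKO, and 105 of the 125 came from 1 cell. In dendritic cell-like cells (108 and 104) Egr1 had 146 and 56 UMIs, and 37 of the 146 came from 1 cell. With 1 library in each group, no difference between classes in these ratios could be tested.

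The surrounding pathway was read from 8 lists of 91 genes, of which 87 were in the data: AP-1 relatives, EGR, NR4A and KLF factors, SRF and ETS regulators, MAP kinases and their phosphatases, RNA decay and antiproliferative relatives, stress effectors, and heat shock genes. In MO/MP-like cells 13 of the 83 tested were called higher and 1 lower, against 4.18% and 3.73% of all genes, and 71 had ratios above 1, against 47.8%. The median log2 ratio was 0.28, against -0.01 for all genes. FAP-like cells had 4 of 83 higher and 1 lower, against 2.79% and 2.79% of all genes, with a median of 0.06. EC-like cells had 1 of 73 higher and 5 lower, against 4.45% and 5.87%, with a median of 0.06. The FAP-like and EC-like counts are thus near the shares of all genes and are given as values. MuSC-like cells had 3 of 57 higher and 13 lower, against 7.1% and 11.6%, with a median of -0.23.

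Stress effectors led in MO/MP-like cells, with 6 of 11 called higher (4.18% of all genes were), 0 lower and a median of 0.60. Socs3, an inhibitor of JAK-STAT signalling, stood at 68.8 CPM in Ctrl and 154 in dKO (1.16, 1.04 to 1.28), and Cdkn1a, a cell cycle inhibitor, at 334 and 594 (0.83, 0.78 to 0.89). The others called were Gadd45b, Nfkbia, Nfkbiz and Tnfaip3, of which the last 3 restrain or tune NF-κB. Of 15 AP-1 relatives, 15 had ratios above 1, against 47.8% of all genes, and 3 were called (Batf, Jdp2 and Maff), with a median of 0.28. Among EGR, NR4A and KLF factors 13 of 14 lay above 1, Csrnp1, an early induced nuclear protein gene, stood at 60.8 and 109.6 CPM (0.85, 0.72 to 0.98) and Klf10 was called with it. Myc was called lower, with 190 UMIs in Ctrl and 78 in dKO, 12.7 and 8.37 CPM (-0.60). Heat shock genes had 10 of 10 ratios above 1, against the same 47.8%, with 1 called, Hsph1, and a median of 0.40. The kinases that act upstream had a median of 0.08 with 0 of 9 called, and SRF and ETS regulators 0.08 with 0 of 6 called.

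In FAP-like cells the genes called were few, where 2.79% of all genes were called in each direction. Trib1, a pseudokinase gene, stood at 89.5 CPM in Ctrl and 154 in dKO (0.78, 0.69 to 0.87), Fosl1, an AP-1 gene, at 32.3 and 50.8 (0.66, 0.49 to 0.82), and the phosphatase gene Dusp10 at 26.2 and 40.1 (0.61, 0.43 to 0.79). Nr4a2 was the fourth called higher, and Dusp4 was called lower, at 4.72 and 3.05 CPM (-0.63, -1.18 to -0.10). In EC-like cells, where 4.45% of all genes were called higher and 5.87% lower, Errfi1, an inhibitor of EGF receptor signalling, stood at 80.96 and 123 CPM (0.61, 0.27 to 0.94). Gadd45a (56.4 and 32.2 CPM, -0.81), the ETS factor gene Elk3 (279.6 and 172, -0.70) and the feedback gene Spry4 (93.6 and 57.8, -0.70) were among the 5 called lower. By mean of per-cell CPM the Gadd45a ratio changed sign, to 0.09, while Elk3 was at -0.77 and Spry4 at -0.59.

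MuSC-like cells had Ccn1, a matricellular early gene, at 234 CPM in Ctrl and 388 in dKO (0.73, 0.50 to 0.96), with Tob2 (0.67, 0.12 to 1.20) and Mafg (0.66, 0.22 to 1.08) also called higher. By mean of per-cell CPM these 3 ratios were 1.35, 0.23 and 0.64. The largest ratios below 0 among the listed genes called were those of Nr4a3, an orphan nuclear receptor gene, with 96 UMIs in Ctrl and 8 in dKO (-1.71, -2.96 to -0.67), Socs3 with 154 and 13 (-1.69, -2.63 to -0.87) and the bZIP gene Maf with 104 and 10 (-1.50, -2.61 to -0.57). Socs3 was thus called higher in MO/MP-like cells and lower in MuSC-like cells, as Fosb and Egr1 were.

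Genes outside the set with the most similar pattern were looked for in 2 ways, as a description. Over thinned FAP-like cells, the summed UMIs of the 10 genes were set against 2378 other genes, ranked by the lower rho of the 2 libraries. The first 3 were heat shock genes: Hspa1b (rho 0.68 in Ctrl and 0.70 in dKO), Hspa1a (0.64 and 0.67) and Dnajb1 (0.57 and 0.59). Hspa8, Ccn1, Hsp90aa1, Hsph1, Hspb1, Dusp1 and Gadd45b followed, down to 0.43 in Ctrl and 0.48 in dKO. The cells with many UMIs of the 10 genes thus also tended to have many heat shock UMIs in both libraries. Over the 20 class-by-library levels, 5961 genes were ranked against the mean profile of the set, and Cask (0.88), Pofut2 (0.85), Cyth3, Mmp14, Pcnx, Pkd2, Crk, Cebpd, Dusp1 and Crispld1 (0.82) came first. Dusp1, the phosphatase that switches off MAP kinases, was the gene shared by both rankings.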

How the data were processed

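Single cells of 1 Ctrl and 1 dKO library were prepared and sequenced on the 10x Genomics and Illumina platforms. The authors deposited raw counts of UMIs per gene and cell barcode for called cells, with no normalization. The submitters' processing notes name Cell Ranger 7.0.0, Seurat 4.3.0, Cufflinks and the build mm10, while the file header gives version 3.0.2. The counts hold 0 mitochondrial genes, 0 columns were left unused, and no comparison by the authors was among the files used.

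Cells with at least 500 genes were kept (192 Ctrl and 154 dKO cells left out). This filter alone left 4335 and 3329 cells, the counts the paper gives after its own doublet removal. Whether doublets had already been taken out of the deposited cells is thus not known. The 7.5% with the highest Scrublet scores (scanpy 1.11.5) were then removed per library (325 and 250), while Scrublet's own threshold called 8 and 15. Single cells may be among those removed. Ties at the limiting score (55 and 37 cells) were settled by barcode. Libraries were integrated by anchors (Seurat 5.3.0, R 4.3.3) on 2000 variable genes and 40 dimensions and clustered at a resolution of 0.8 into 23 clusters, leaving out 103 genes (the 10 genes and their pathway lists). FAP-like and MO/MP-like cells were clustered again at 0.4 with 20 dimensions. Clusters were named from 17 marker lists (150 genes), with at least 3 enriched markers, a rule whose details were settled with the clusters in view. Cycling cells were kept in their class.

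UMIs were summed per class and library as CPM, with exact Poisson and conditional binomial intervals (numpy 2.4.6, scipy 1.17.1), tested on simulated data. Thinning drew 2000 UMIs per cell. Profiles used log2(CPM + 10). Named were all 10 genes, up to 3 listed genes in each direction per main class with the largest called ratio, the 10 genes most like the set by each ranking, and Yy1. Genes named only as called within a list were added after their values were seen. The 10 genes, lists and settings were chosen with earlier results of these data known. Alternatives were the weighting of cells, thinning, filters, doublets, clustering, scaling and the fold limit.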

Additional observations from a re-analysis of the deposited data

How the results depend on the processing

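Each group had 1 library, so no result has a replicate check and leaving out a replicate was not possible. No paired analysis was possible because each group had 1 library. The median log2 ratio of the 10 genes in FAP-like cells, -0.07 as reported, was 0.083 with the mean of per-cell CPM, 0.053 with cells thinned to 2000 UMIs and -0.022 when scaled to the median ratio of all genes, so its direction depends on the weighting of cells. In MO/MP-like cells the median of 0.45 was 0.37 with thinned cells, and ranged from 0.37 to 0.47 over all alternatives, with 10 of 10 ratios above 1 in each. The count of 3 called genes there was 1 with thinned cells and 0 at a fold limit of 2. In EC-like cells the count of 1 was 0 with the mean of per-cell CPM and 0 at a fold limit of 2. In MuSC-like cells the count of 4 was 2 at a fold limit of 2, and the median of -0.29 ran from -0.58 with cells of at least 200 genes and 1000 UMIs to -0.04 with the mean of per-cell CPM. With no doublets removed, the MuSC-like cluster held 145 Ctrl and 40 dKO cells. The signs of 2 of its 10 ratios then changed, and 4 of 10 lay above 1. Alternatives chosen after seeing the data left out the top cell of each gene, or cells with more markers of another class. They kept every count of calls, with medians of -0.07 and -0.08 in FAP-like, 0.45 and 0.42 in MO/MP-like, -0.06 and -0.02 in EC-like and -0.47 and -0.41 in MuSC-like cells. No called ratio of the 10 genes changed sign in these alternatives. Depth was low in dKO neutrophil-like cells, with a median of 1663.5 UMIs, and the dKO MuSC-like values rest on 30 cells.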
